A study of Mus musculus with 24 samples.

Results

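The comparison described here set Cd146+ against Cd31+ mouse liver endothelial cells after silencing of P16Ink4a, in 6 of the 24 RNA sequencing libraries of the study. Its members were taken from the labels: the 3 Cd146+ P16 shRNA libraries (replicates 3, 5 and 6) and the 3 Cd31+ P16 shRNA libraries (replicates 1, 2 and 3). According to the methods, the cells came from livers of 3-month-old female C57BL/6 mice and were separated with magnetic beads against Cd31 or Cd146. The methods mention no engineered allele. Both groups shared the same lentiviral pLKO.1 hairpin against P16Ink4a and were harvested 1 week after transduction. The hairpin's own control, a non-coding hairpin (nc shRNA), was available in 3 further libraries of each population. The libraries are primary cultures, so a bead-enriched population may hold other adherent liver cells. What a replicate number stands for was not given in the sources used here.

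Cd31 is the product of Pecam1, an adhesion molecule of endothelial junctions in all vessel beds. Cd146 is the product of Mcam, an adhesion molecule of endothelium that is also found on pericytes and smooth muscle, and it was used here to enrich liver sinusoidal endothelial cells. P16Ink4a, encoded by Cdkn2a, binds the cyclin-dependent kinases Cdk4 and Cdk6, keeps the retinoblastoma protein active and thereby blocks entry into S phase. The same locus also encodes p19Arf, and a count per gene does not separate the transcripts.

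The 6 libraries held between 17698197 and 26470392 counts over 56748 genes, and a count of 3, taken as the detection floor, corresponded to between 0.113 and 0.17 CPM (read counts scaled to the library total). Cd146+ replicate 3 correlated with the other Cd146+ libraries at r = 0.933 and r = 0.912 across genes on the log2 CPM scale, whereas replicates 5 and 6 correlated at 0.978 with each other and the Cd31+ libraries at 0.976 to 0.978 among themselves. With Cd31+ replicates 1, 2 and 3, Cd146+ replicate 3 correlated at 0.956, 0.95 and 0.969, higher than with its own group. Cd146+ replicate 5 correlated with the Cd31+ libraries at 0.955 to 0.966 and replicate 6 at 0.939 to 0.947. In addition, Xist, the RNA of the inactive X chromosome, stood at 601 and 343 CPM in Cd146+ replicates 5 and 6 and at or below 0.0957 CPM in the other 4 libraries, which in turn held 101 to 152 CPM of the Y-linked Ddx3y. No count of Ddx3y was found in Cd146+ replicates 5 and 6. The methods name female mice, and 4 of the 6 libraries went against that. Among the libraries with Ddx3y the Cd146+ group has a single library, replicate 3. A fit restricted to these 4 libraries, which assumes that the lone library varies like the Cd31+ ones, called 2408 of 15753 genes at an unadjusted p under 0.05 (15.3%) and 2 at an adjusted one with edgeR (0.0127%), Fhl1 and Serpinb6b, both lower in Cd146+ replicate 3 and named here after their values were seen (log2 fold change −3.49 and −3.59, adjusted p = 0.0441 for each). Within the 6 libraries the populations and this difference in sex-linked transcripts cannot be told apart for what rests on replicates 5 and 6.

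The targeted gene was low in both populations. Cdkn2a (chr4:89192708-89212890, minus strand, coordinates as deposited) measured 9.32, 5.20 and 5.75 CPM in the Cd31+ libraries and 7.69, 11.8 and 26.6 CPM in the Cd146+ libraries. The groups overlapped through Cd146+ replicate 3, and the Cd146+ to Cd31+ ratio was 2.27 (log2 fold change 1.18 ± 0.495 SE, edgeR adjusted p = 0.514). In the nc shRNA libraries, without scaling, Cdkn2a ranged from 35.6 to 75.3 CPM in Cd31+ cells and from 100 to 190 CPM in Cd146+ cells, so every P16 shRNA library lay below every nc shRNA library of its population.

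The genes of the bead antigens did not separate the populations. Pecam1 measured 62.1, 113 and 95.6 CPM in Cd31+ cells and 3.99, 223 and 229 CPM in Cd146+ cells. Mcam measured 32.5, 53.9 and 64.7 CPM in Cd31+ cells and 3.18, 179 and 281 CPM in Cd146+ cells. For both genes Cd146+ replicate 3 was the lowest of all 6 libraries, and replicates 5 and 6 were the highest. Among the nc shRNA libraries Cd146+ replicate 3 was the lowest too, at 10.2 CPM for Pecam1 and 11.6 CPM for Mcam (scaled over 12 libraries). Whether the Cd146+ libraries of number 3 are as labelled was not tested. Under P16 shRNA the log2 fold change was 0.75 ± 1.12 (SE) for Pecam1 and 1.62 ± 1.21 for Mcam (edgeR adjusted p = 0.807 and 0.641). Without Cd146+ replicate 3 these became 1.31 for Pecam1 and 2.18 for Mcam (adjusted p = 0.0478 and 0.0369), so Pecam1, the Cd31 gene, was then higher in the Cd146+ cells. In a fit over all 24 libraries the direction turned with a term for Xist (−0.60 for Pecam1 and −0.25 for Mcam). It also turned with the replicate number as a block (−1.48 and −1.22), where Cd146+ replicate 6 carries no information. In the 4 libraries without Xist the only Cd146+ library is replicate 3, the lowest for both genes. The values there (−4.49 and −3.98) therefore restate that library.

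**Figure D1:**
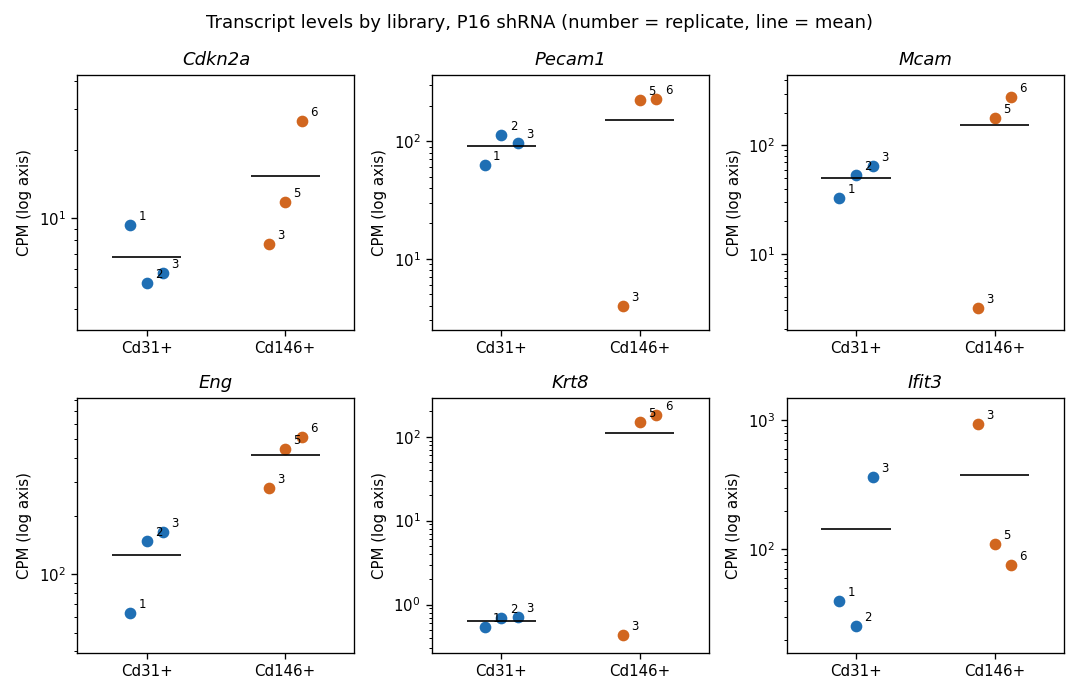
CPM (TMM-scaled, log axis) of 6 transcripts in each P16 shRNA library, with the replicate number beside each point and the group mean as a line. Pecam1, Mcam and Krt8 are lowest in Cd146+ replicate 3 and highest in Cd146+ replicates 5 and 6, Eng is higher in all 3 Cd146+ libraries than in any Cd31+ library, and Ifit3 is highest in Cd146+ replicate 3.

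The wider endothelial identity followed the same pattern. Of 20 general endothelial markers, 19 could be tested and all 19 had a positive log2 fold change, with a median of 1.39 against 0.017 over all genes tested and of −0.63 with the term for Xist. At an unadjusted p under 0.05 there was 1 of them, against 9.71% of all genes tested in either direction, and none passed an adjusted p with edgeR, whereas DESeq2 called 1, Eng (adjusted p = 0.00389), and 1.63% of all genes. Their mean level on the log2 CPM scale was 3.77, 3.70 and 4.80 in Cd31+ cells and 1.85, 6.04 and 6.03 in Cd146+ cells, and 16 of the 19 were lowest in Cd146+ replicate 3. Eng, the endoglin co-receptor for Tgf-beta and Bmp9, was one of those that did not follow this order. It measured 63.2, 149 and 166 CPM in Cd31+ cells and 281, 443 and 513 CPM in Cd146+ cells. All Cd146+ libraries lay above all Cd31+ libraries, at a log2 fold change of 1.71 ± 0.41 (SE, edgeR unadjusted p = 0.00464, adjusted p = 0.422) that was 0.90 with the term for Xist. Cdh5, the cadherin of endothelial junctions, measured 47.3 to 93.8 CPM in Cd31+ cells but 3.95, 262 and 180 CPM in Cd146+ cells. The sialomucin Emcn showed the same split, at 42.3 to 103 CPM and at 2.49, 266 and 340 CPM.

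Markers of sinusoidal endothelium were uneven. Of 24 listed, 16 were abundant enough to be tested, with a median log2 fold change of 0.66 (−0.83 with the term for Xist), and the whole list summed to between 569 and 1037 CPM in each library. On the deposited FPKM scale, which accounts for gene length, the scavenger receptor Stab2 lay between 0.0378 and 0.0728 and the lectin Clec4g between 0 and 0.0224, whereas Cdh5 reached 60.0 and Col1a1, the main chain of type I collagen, lay between 1270 and 2890. Gata4, a transcription factor of sinusoidal endothelial identity, had a lower mean in Cd146+ cells, but the groups overlapped through Cd146+ replicate 3. It measured 138, 121 and 106 CPM in Cd31+ cells against 110, 65.3 and 56.9 CPM (log2 fold change −0.65 ± 0.27 SE, edgeR adjusted p = 0.513). Cd146+ replicate 3, where Cdh5 stood at 3.95 CPM, held the most Gata4 of its group. Wnt2, a sinusoidal angiocrine ligand, stood at 0.686 to 1.19 CPM in Cd31+ cells and at 0.601, 5.70 and 8.33 CPM in Cd146+ cells. Without Cd146+ replicate 3, edgeR called Gata4 lower (log2 fold change −1.01, adjusted p = 0.0412) and Wnt2 higher (2.98, adjusted p = 0.0212). In that fit 3 of the tested sinusoidal markers were called higher and 1 lower, against 1.90% and 0.648% of all genes.

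Markers of other cell types moved with the same libraries. All 16 tested macrophage markers of 23 had a positive log2 fold change (median 1.68, but −0.70 with the term for Xist), and their summed level was 48.4 to 148 CPM in Cd31+ cells and 31.3, 430 and 262 CPM in Cd146+ cells. The leukocyte phosphatase Ptprc stayed between 0.13 and 7.1 CPM, unscaled. The complement subunit C1qa, typical of tissue macrophages, measured 2.83 to 12.2 CPM in Cd31+ cells and 0.515, 46.5 and 37.7 CPM in Cd146+ cells. Mpeg1, which encodes the pore-forming perforin-2 of phagocytes, did not overlap between the groups, at 4.92 to 7.10 CPM against 9.92, 40.4 and 12.8 CPM (edgeR unadjusted p = 0.0139, adjusted p = 0.465).

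Epithelial keratins differed in the same libraries. Krt8, a keratin of simple epithelia such as bile ducts, measured 0.542, 0.686 and 0.707 CPM in Cd31+ cells and 0.429, 151 and 183 CPM in Cd146+ cells. Its partner Krt18 measured 2.00 to 7.87 CPM against 0.601, 103 and 136 CPM. In both cases the difference was carried by replicates 5 and 6, which express Xist, and Krt8 reached 12.8 and 7.13 CPM in the Cd31+ replicate 5 libraries with the empty vector and P16 constructs, where Xist was also present, against 0.823 CPM at most in the 3 Cd31+ nc shRNA libraries (unscaled). The Xist-expressing Cd146+ replicate 4 with the empty vector held 0.288 CPM. The contractile gene Tpm2 stood at 108 to 140.2 CPM and at 97.6, 383 and 773 CPM. Of 12 hepatocyte markers 2 were abundant enough to be tested, Apob and Trf, and the list summed to between 61.8 and 602 CPM, whereas Alb reached no more than 0.491 CPM in any of the 6 libraries. In addition, 1 of 12 lymphoid markers was abundant enough to be tested. In bulk samples a lower share of cells of a type and less RNA per cell cannot be told apart. The part of these marker transcripts in the results below was not tested.

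The surface protein Thy1, a marker of liver fibroblasts that is also found on other cells, showed one of the largest separated differences. It measured 1.73, 1.03 and 8.81 CPM in Cd31+ cells and 28.7, 141 and 70.5 CPM in Cd146+ cells, a log2 fold change of 4.36 ± 0.99 (SE, edgeR unadjusted p = 0.00379, adjusted p = 0.404) that was 2.66 with the term for Xist. Here Cd146+ replicate 3 lay with its group. Msln, the mesothelial surface protein mesothelin, was also separated, at 71.4, 30.1 and 33.4 CPM against 244, 77.3 and 161 CPM (log2 fold change 1.84 ± 0.51 SE, adjusted p = 0.444).

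**Figure D2:**
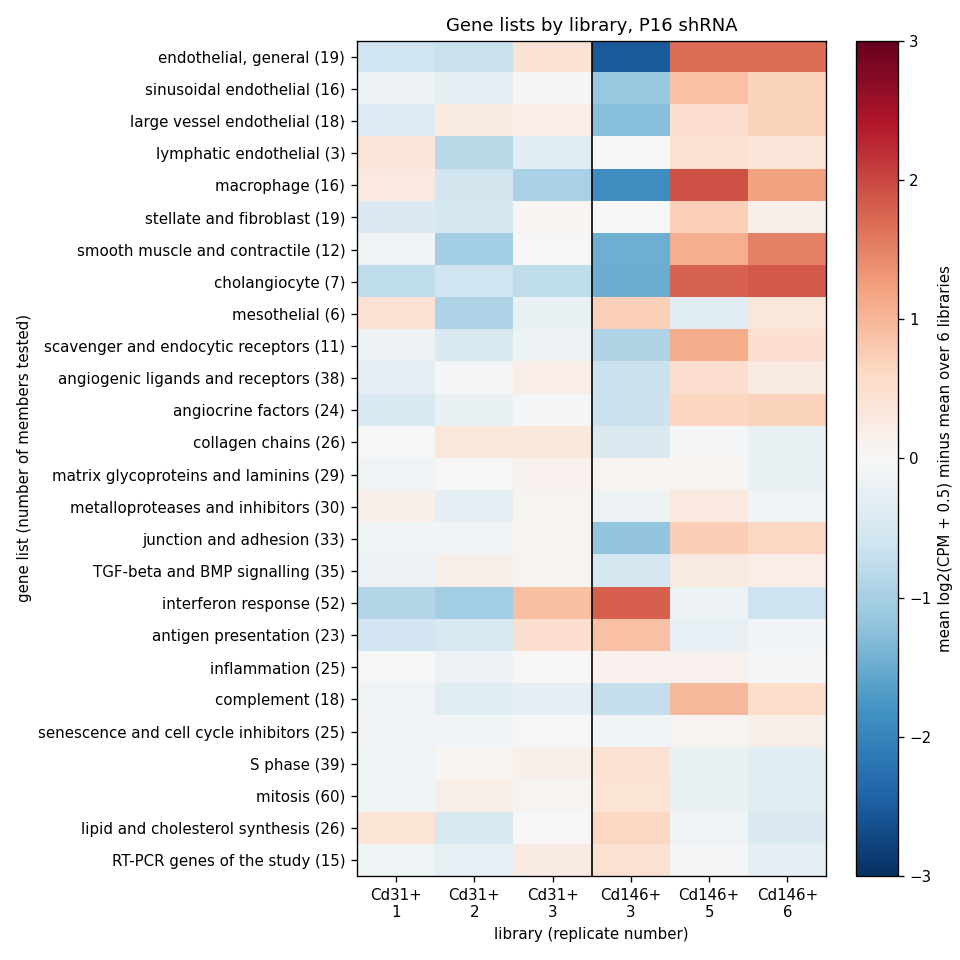
Mean log2(CPM + 0.5) of the tested members of 26 gene lists (number of members in brackets) in each P16 shRNA library, as the difference from the mean over the 6 libraries. The general endothelial, macrophage, contractile and cholangiocyte lists are lowest in Cd146+ replicate 3 and highest in Cd146+ replicates 5 and 6, and the interferon response list is highest in Cd146+ replicate 3.

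Over the whole transcriptome, none of 14817 genes tested reached an adjusted p under 0.05 with edgeR's quasi-likelihood test. At an unadjusted p under 0.05 there were 1439 genes (9.71%), 798 higher in Cd146+ cells (5.39%) and 641 lower (4.33%). The CPM of the groups did not overlap for 2673 genes (18.0%), 1258 higher (8.49%) and 1415 lower (9.55%). DESeq2's Wald test called 241 genes at an adjusted p under 0.05 (1.63%). The result turned on 1 library. Without Cd146+ replicate 3, edgeR called 393 of 15436 genes at an adjusted p under 0.05 (2.55%), 293 higher (1.90%) and 100 lower (0.648%), and 95 of them were also among the 241 genes of DESeq2. Leaving out any other library left 0 genes at the adjusted threshold and between 677 and 1268 at the unadjusted one. Without Cd31+ replicate 1 there were 839 and without Cd31+ replicate 2 there were 677.

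The library that was left out had lain on the other side for many of these genes. Of the 293 genes higher in Cd146+ replicates 5 and 6, 67 (22.9%) were above all Cd31+ libraries in Cd146+ replicate 3 and 148 (50.5%) were below all of them. Of the 100 lower genes, 64 (64%) were below all Cd31+ libraries in replicate 3 and 15 were above. Over all genes tested in that fit the shares above and below were 32.3% and 34.6%.

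**Figure D3:**
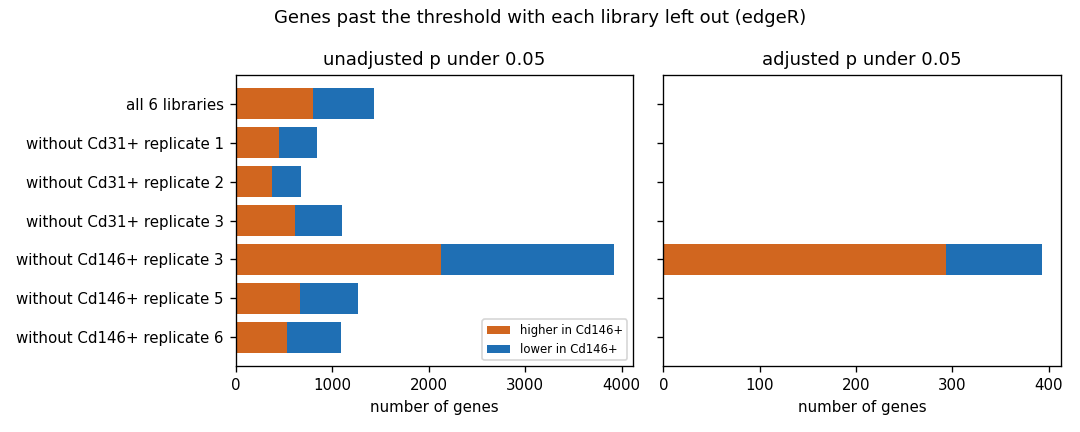
Number of genes past an unadjusted (left) or adjusted (right) p of 0.05 by edgeR with all 6 libraries and with each library left out, split by direction. At the adjusted threshold genes were called in the fit without Cd146+ replicate 3, 293 higher and 100 lower, and in none of the others.

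Several genes of the extracellular matrix and its receptors were lower in all 3 Cd146+ libraries. The genes named in this and the next paragraphs from the lists, beyond the most abundant of each list, were chosen after their values were seen. Of 27 collagen chains 26 were tested, the median log2 fold change was −0.37, and 5 reached an unadjusted p under 0.05, all of them lower, against 5.39% higher and 4.33% lower of all genes. Of 31 matrix glycoproteins and laminins 29 were tested, with a median of −0.28 (0.05 with the term for Xist), 6 lower and 2 higher at that threshold. With edgeR no member of either list passed an adjusted p of 0.05 over the 6 libraries, and with DESeq2 2 collagen chains (Col5a3 and Col16a1) and 2 matrix genes (Lama5 and Fn1) did. DESeq2 called 1.63% of all genes at that threshold, in either direction.

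Lama5 (chr2:179818166-179867652), the laminin alpha chain of mature vascular basement membranes, measured 537, 407 and 418 CPM in Cd31+ cells and 168, 132 and 207 CPM in Cd146+ cells. Each Cd146+ library lay well below each Cd31+ library, and the Cd31+ to Cd146+ ratio was 2.69 (log2 fold change −1.43 ± 0.21 SE, edgeR unadjusted p = 0.000325, adjusted p = 0.403, DESeq2 adjusted p = 7.21e-06). Col5a3, a minor chain of the fibril-regulating type V collagen, measured 44.7, 60.1 and 84.2 CPM against 21.8, 17.0 and 17.5 CPM (log2 fold change −1.75 ± 0.26 SE, adjusted p = 0.403). The other type V chains were far more abundant and went the same way. Col5a1 stood at 2039, 3198 and 2033 CPM against 1403, 1559 and 1216 CPM, and Col5a2 at 10090, 8134 and 8172 CPM against 7153, 5210 and 4202 CPM. Col16a1, a fibril-associated collagen, measured 232, 250 and 238 CPM against 121, 147 and 161 CPM, and its groups did not overlap either.

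Fibronectin (Fn1, chr1:71624679-71692359), the glycoprotein on which cells assemble a provisional matrix, was among the most abundant transcripts of the cultures. It measured 23100, 29400 and 18150 CPM in Cd31+ cells and 11470, 14630 and 10520 CPM in Cd146+ cells, a Cd31+ to Cd146+ ratio of 1.93 (log2 fold change −0.95 ± 0.24 SE, edgeR unadjusted p = 0.00549, adjusted p = 0.435). Perlecan (Hspg2), the heparan sulphate proteoglycan of basement membranes, measured 1653 to 2269 CPM against 831 to 1426 CPM, and the microfibril protein Fbn1 1053 to 1509 CPM against 439 to 859 CPM. The interstitial collagens differed less. Col1a1 measured 19610, 13310 and 14950 CPM against 13270, 12020 and 8587 CPM, which does not overlap by a narrow margin (log2 fold change −0.50 ± 0.24 SE, adjusted p = 0.529), and Col3a1 overlapped (−0.43 ± 0.29).

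Antxr1, the collagen-binding anthrax toxin receptor also known as tumour endothelial marker Tem8, had the smallest p of the protein-coding genes that were lower. It measured 219, 227 and 212 CPM in Cd31+ cells and 115, 117 and 123 CPM in Cd146+ cells, a ratio of 1.85 (log2 fold change −0.89 ± 0.12 SE, edgeR unadjusted p = 0.000158, adjusted p = 0.403). The integrin subunits Itgb3 (53.8 to 90.0 CPM against 21.9 to 53.7 CPM) and Itgav (299 to 378 CPM against 188 to 283 CPM) together form the vitronectin receptor. They did not overlap between the groups, Itgb3 by a narrow margin (edgeR adjusted p = 0.486 for Itgb3 and 0.499 for Itgav). Of 30 metalloproteases and inhibitors tested, 2 were higher and 2 lower at an unadjusted p under 0.05, where 5.39% and 4.33% of all genes were. The higher pair was the urokinase gene Plau, which measured 20.8 to 32.7 CPM against 36.5 to 63.6 CPM, and the metalloprotease inhibitor Timp1, at 242 to 443 CPM against 480 to 837 CPM.

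**Figure D4:**
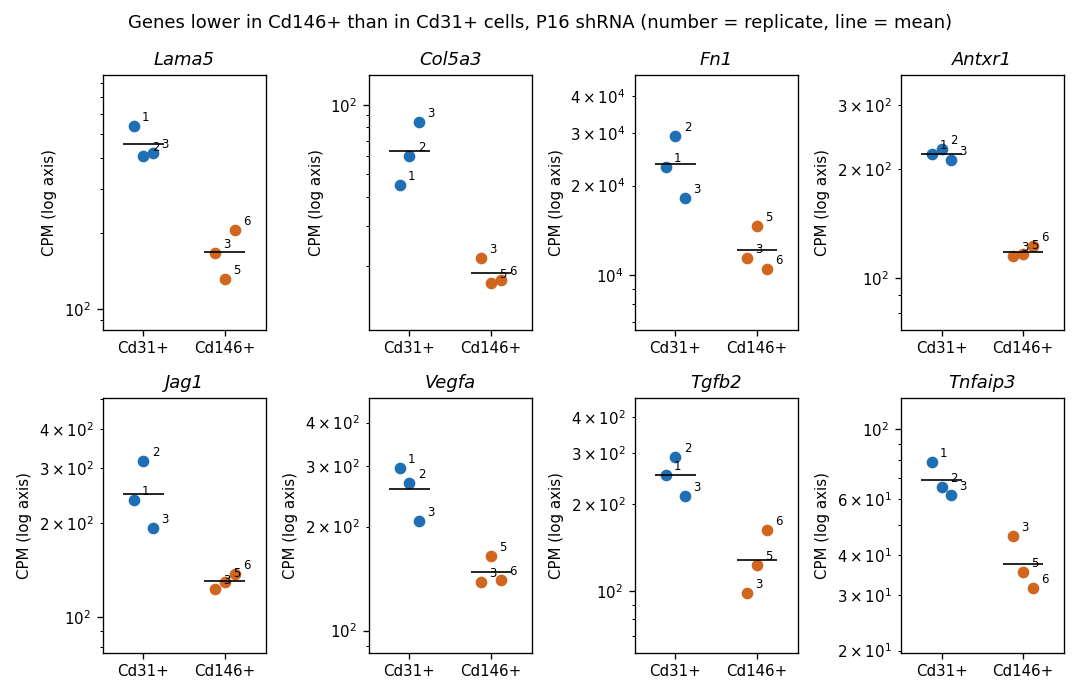
CPM (TMM-scaled, log axis) of 8 genes in each P16 shRNA library, with the replicate number beside each point and the group mean as a line. For all 8 genes the 3 Cd146+ libraries, replicate 3 included, lie below the 3 Cd31+ libraries.

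Angiogenic ligands and receptors depended on the libraries used. Of 41 genes 38 were tested, the median log2 fold change was 0.14 (−0.30 with the term for Xist), 25 were positive, and 5 were lower and 0 higher at an unadjusted p under 0.05, against 5.39% higher and 4.33% lower of all genes. Without Cd146+ replicate 3, edgeR instead called 3 members higher at an adjusted p under 0.05 and 0 lower, namely Slit2, Angpt2 and Pgf (log2 fold change 1.69, 2.42 and 1.78). Of all genes tested in that fit, 1.90% were called higher and 0.648% lower. Vegfa, the main endothelial growth factor, measured 295, 267 and 208 CPM in Cd31+ cells and 138, 164 and 140 CPM in Cd146+ cells (log2 fold change −0.80 ± 0.17 SE, edgeR unadjusted p = 0.00265, adjusted p = 0.404). The Notch ligand Jag1 measured 237, 316 and 193 CPM against 123, 129 and 138 CPM (−0.93 ± 0.20). The Vegf co-receptor Nrp1 stood at 97.2 to 156 CPM against 57.4 to 74.0 CPM. Flt4, the receptor for Vegfc, stood at 36.2 to 71.1 CPM against 18.1 to 35.3 CPM, and the netrin receptor Unc5b at 530 to 853 CPM against 239 to 470 CPM. The groups did not overlap for these 5 genes, for Flt4 by a narrow margin. With edgeR none of them passed the adjusted threshold over the 6 libraries or without Cd146+ replicate 3, and with DESeq2 Jag1 and Vegfa did over the 6 libraries (adjusted p = 0.00923 and 0.0118).

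Angiocrine factors are the secreted signals of endothelial cells. Of 24 tested, 6 were higher and 1 lower at an unadjusted p under 0.05, against 5.39% higher and 4.33% lower of all genes, with a median log2 fold change of 0.42 (−0.13 with the term for Xist). Rspo3, which enhances Wnt signalling and maintains liver zonation, measured 0.162, 4.11 and 6.22 CPM in Cd31+ cells and 20.3, 31.1 and 36.0 CPM in Cd146+ cells (log2 fold change 3.05 ± 0.94 SE, adjusted p = 0.466). Igf1 did not overlap between the groups, at 118, 128 and 117 CPM against 183, 158 and 157 CPM (0.45 ± 0.13 SE, unadjusted p = 0.0108, adjusted p = 0.448). Igfbp5, a secreted binding protein of insulin-like growth factors, rested on replicates 5 and 6 in size: it measured 0.471 to 0.80 CPM against 0.816, 7.47 and 3.48 CPM. The single lower factor was Tgfb2, a Tgf-beta ligand, at 252, 292 and 213 CPM against 98.3, 124 and 162 CPM (−0.98 ± 0.22 SE, unadjusted p = 0.00349, adjusted p = 0.404). The Bmp receptor Bmpr2 was lower as well, at 129 to 156 CPM against 86.2 to 121 CPM. Within the 35 tested Tgf-beta and Bmp genes, 2 were higher and 5 lower at an unadjusted p under 0.05, against 5.39% and 4.33% of all genes.

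Tnfaip3, the ubiquitin-editing inhibitor of NF-kappaB, measured 78.6, 65.9 and 62.1 CPM in Cd31+ cells and 45.9, 35.4 and 31.6 CPM in Cd146+ cells (log2 fold change −0.87 ± 0.19 SE, edgeR adjusted p = 0.404 over the 6 libraries and 0.0369 without Cd146+ replicate 3). Of 25 inflammation genes tested, 1 was higher and 2 were lower at an unadjusted p under 0.05, against 5.39% higher and 4.33% lower of all genes. Of 18 complement genes tested, 16 had a positive log2 fold change, with a median of 0.91 that was −0.15 with the term for Xist. Masp1, a protease of the lectin pathway of complement, measured 77.6, 177 and 122 CPM against 44.1, 45.0 and 50.2 CPM. The classical pathway component C2 measured 0.379, 0.229 and 1.41 CPM against 9.79, 2.66 and 3.23 CPM. Both were separated between the groups, in opposite directions.

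The direction of the interferon-stimulated genes rested on 1 library. Many of them share a promoter element, the interferon-stimulated response element, through which type I interferon acts on transcription. In the RefSeq promoters (GRCm38.p6, 250 bases before to 50 bases after the start), its core, GAAA followed after any 2 bases by another GAAA on either strand, was found in 22 of the 39 tested list members with a promoter entry (56.4%) and in 403 of all 10639 tested genes with one (3.79%). Windows of 30 bases are shown for 4 members that were among the most abundant or separated ones, 5′ to 3′ on the gene's strand, with the matched letters in capitals. They lie at chr19:34583363-34583392 (plus strand) for Ifit3, chr4:156200865-156200894 (minus strand) for Isg15, chr8:71537577-71537606 (minus strand) for Bst2 and chr3:142620594-142620623 (plus strand) for Gbp2.
Ifit3: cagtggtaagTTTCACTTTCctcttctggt
Isg15: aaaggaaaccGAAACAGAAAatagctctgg
Bst2: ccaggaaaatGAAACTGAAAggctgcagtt
Gbp2: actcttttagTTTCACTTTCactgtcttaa

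All but 1 of the 52 tested interferon response genes of 56 had a positive log2 fold change, with a median of 0.76. At an unadjusted p under 0.05 with edgeR 1 was higher and 0 lower, against 5.39% higher and 4.33% lower of all genes. In 50 of the 52 the highest of the 6 libraries was Cd146+ replicate 3. Ifit3, an antiviral RNA-binding protein, measured 40.1, 25.4 and 365 CPM in Cd31+ cells and 940, 110 and 76.3 CPM in Cd146+ cells. The ubiquitin-like modifier Isg15 measured 61.2, 46.7 and 206 CPM against 331, 99.3 and 111 CPM, and the virus-tethering protein Bst2 121, 107 and 351 CPM against 544, 244 and 313 CPM. In each case replicate 3 of either population was the highest library of its group. Without Cd146+ replicate 3 the median of the list was −0.45 and the log2 fold change of Ifit3 turned from 1.39 to −0.64. Gbp2, a guanylate-binding GTPase, was the member that did not overlap, at 12.02, 9.83 and 47.5 CPM against 97.2, 90.2 and 53.1 CPM (log2 fold change 1.79 ± 0.64 SE, edgeR adjusted p = 0.499).

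Antigen presentation genes went with them. Of 23 tested, 21 had a positive log2 fold change (median 0.33, −0.05 without Cd146+ replicate 3), and 18 were highest in Cd146+ replicate 3. Psme2, a subunit of the interferon-induced proteasome activator, measured 22.7, 39.6 and 44.2 CPM against 97.4, 50.5 and 60.7 CPM, and B2m, the light chain of class I molecules, 401, 460 and 944 CPM against 1390, 568 and 634 CPM.

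The median log2 fold change was 0.01 for 39 S phase genes and −0.03 for 60 mitosis genes, and no member of either list reached an unadjusted p under 0.05 with edgeR or an adjusted one with DESeq2. In Cd146+ replicate 3, however, 34 of the S phase and 47 of the mitosis genes had their highest level, and in replicate 6 20 and 41 had their lowest. Mki67, the proliferation marker, measured 120.5, 187 and 133 CPM in Cd31+ cells and 144, 101 and 64.2 CPM in Cd146+ cells, which overlapped. Without Cd146+ replicate 3 the medians of the S phase and mitosis lists were −0.34 and −0.38. In that fit edgeR called 2 mitosis genes lower at an adjusted p under 0.05 and no S phase gene. Of all genes in that fit 0.648% were called lower. Of 25 senescence genes tested, 2 were higher and 1 lower at an unadjusted p under 0.05, with a median of 0.00, against 5.39% higher and 4.33% lower of all genes.

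The 10 protein-coding genes with the smallest p among those higher in Cd146+ cells were Sobp, Pdlim4, Acot4, Gch1, Dact3, Ost4, Hs3st1, Adcyap1r1, Sbsn and Sult4a1, each at an edgeR adjusted p of 0.403 or 0.404. Gch1, the rate-limiting enzyme of tetrahydrobiopterin synthesis and thereby of the cofactor of endothelial nitric oxide synthase, measured 4.71, 4.86 and 5.04 CPM in Cd31+ cells and 9.49, 11.4 and 10.96 CPM in Cd146+ cells (log2 fold change 1.12 ± 0.19 SE). Dact3, a Wnt pathway inhibitor, measured 15.3, 19.8 and 19.1 CPM against 31.2, 34.1 and 35.9 CPM. Ost4, a small subunit of the oligosaccharyltransferase, measured 57.4, 52.9 and 50.2 CPM against 87.2, 95.4 and 119 CPM. In these 3 genes the libraries of a group lay close to each other and Cd146+ replicate 3 was no exception.

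Hs3st1, which sulphates heparan sulphate to the form that binds antithrombin, measured 11.4, 12.6 and 17.3 CPM against 40.7, 26.7 and 37.6 CPM. Adcyap1r1, the receptor for the neuropeptide Pacap, stood at 2.00 to 4.01 CPM against 10.1 to 22.6 CPM, and the actin-associated Pdlim4 at 0.686 to 1.14 CPM against 3.88 to 4.72 CPM. Sobp was the leading gene by p, but it lay at 0.0542 to 0.0942 CPM in Cd31+ cells, below the floor of 3 counts, and at 0.687 to 1.55 CPM in Cd146+ cells. By size of the difference the leading separated genes were Thy1, Prrg3, Bex4, Tnfsf15 and Adam23. Of these, Prrg3 (0.0542 and 0.114 CPM) and Bex4 (0 and 0.0571 CPM) lay below the floor in Cd31+ replicates 1 and 2. Tnfsf15, an endothelial cytokine of the Tnf family, measured 1.03, 3.20 and 11.1 CPM against 23.7, 127 and 64.1 CPM (log2 fold change 3.80 ± 0.98 SE, adjusted p = 0.435), and its log2 fold change was 1.36 with the term for Xist.

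The 10 lower genes with the smallest p were Antxr1, Nrip3, Col5a3, Kif26b, Lama5, Tenm3, Pxylp1, Arhgef26, B4galnt1 and Zfp827, at the same adjusted p of 0.403 or 0.404. Kif26b, a kinesin family member, measured 270, 298 and 181 CPM in Cd31+ cells and 54.0, 90.0 and 72.9 CPM in Cd146+ cells (log2 fold change −1.79 ± 0.27 SE). Tenm3, a teneurin adhesion protein, measured 75.2, 110 and 87.1 CPM against 37.2, 42.9 and 34.6 CPM. Arhgef26, an exchange factor for the small GTPase RhoG, averaged 14.9 ± 4.62 CPM (SD, n = 3) against 2.36 ± 1.09 CPM without overlap, a ratio of 6.30. B4galnt1, an enzyme of ganglioside synthesis, measured 42.4, 34.1 and 30.8 CPM against 14.3, 19.5 and 16.4 CPM. The homeobox gene Lhx9 led by size, at 10.2, 24.4 and 6.13 CPM against 0.215, 1.70 and 2.47 CPM (log2 fold change −3.21 ± 0.89 SE, adjusted p = 0.444). The term for Xist in the fit over all 24 libraries left Lama5 at −0.60, Col5a3 at −1.20, Antxr1 at −0.61, Arhgef26 at −2.63 and Lhx9 at −2.51.

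The higher and lower genes differed in length. The median gene length in the deposited annotation was 2440 bases for the 798 higher genes, 6282 for the 641 lower genes and 4159 for all genes tested. The mean length of the genes, weighted by their counts, was 6001 to 6106 bases in the Cd31+ libraries and 5763, 5717 and 5016 bases in the Cd146+ libraries, lowest in replicate 6. The part of this difference between libraries in the gene results was not tested.

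To ask whether the difference between the populations was another one once P16 was silenced, it was compared with that under nc shRNA in the 12 hairpin libraries. None of 15676 genes had an adjusted p under 0.05 for the difference between the contrasts, and 168 an unadjusted one (1.07%), 76 in the positive (0.485%) and 92 in the negative direction (0.587%). This fit held no term for the replicate number, although hairpin libraries of a population with the same number correlated at 0.515 to 0.734. With such a block more genes passed the unadjusted threshold and none the adjusted one, as given below. A gene not called here is not shown to differ alike under both hairpins. Under nc shRNA itself, 1524 genes differed between the populations at an unadjusted p under 0.05 (9.72%) and 7 at an adjusted one (0.0447%). Of the 796 genes higher in Cd146+ cells under P16 shRNA at an unadjusted p under 0.05 that were tested in both fits, 760 (95.5%) had a positive log2 fold change under nc shRNA, and of the 641 lower genes 579 (90.3%) a negative one, against 71.1% with equal sign over 14803 genes. The hairpin groups share no library, but libraries of a population with the same replicate number go together, so the contrasts are not independent.

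Gene by gene, the values under both hairpins lay close for Cdkn2a (log2 fold change 1.18 under P16 shRNA and 1.30 under nc shRNA, difference −0.13, adjusted p = 1), Gch1 (1.12 and 1.12), Ost4 (0.91 and 0.97) and Lama5 (−1.43 and −1.03). They lay further apart for Pxylp1 (−0.82 and −0.0054), B4galnt1 (−1.10 and −0.34), Pdlim4 (2.11 and 0.49) and Nrp1 (−0.86 and −0.0054). The genes of both sentences were chosen after their values were seen, apart from Cdkn2a. Plxna4, a plexin receptor of semaphorins, was among the genes with the smallest p for the difference. Scaled over the 12 libraries, it measured 110, 76.7 and 76.1 CPM in Cd31+ P16 shRNA and 35.8 to 40.4 CPM in Cd31+ nc shRNA libraries, against 38.1 to 53.9 CPM and 32.7 to 80.3 CPM in the Cd146+ libraries (difference −1.33 ± 0.41 SE, unadjusted p = 0.00789, adjusted p = 1). In Cd31+ cells every P16 shRNA library lay above every nc shRNA library, and in Cd146+ cells the ranges overlapped. Immp1l, a subunit of the mitochondrial inner membrane peptidase, was among those with the smallest p in the positive direction (0.75 ± 0.23 SE, adjusted p = 1), with 14.4 to 15.2 CPM in Cd31+ and 18.7 to 25.2 CPM in Cd146+ P16 shRNA libraries.

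**Figure D5:**
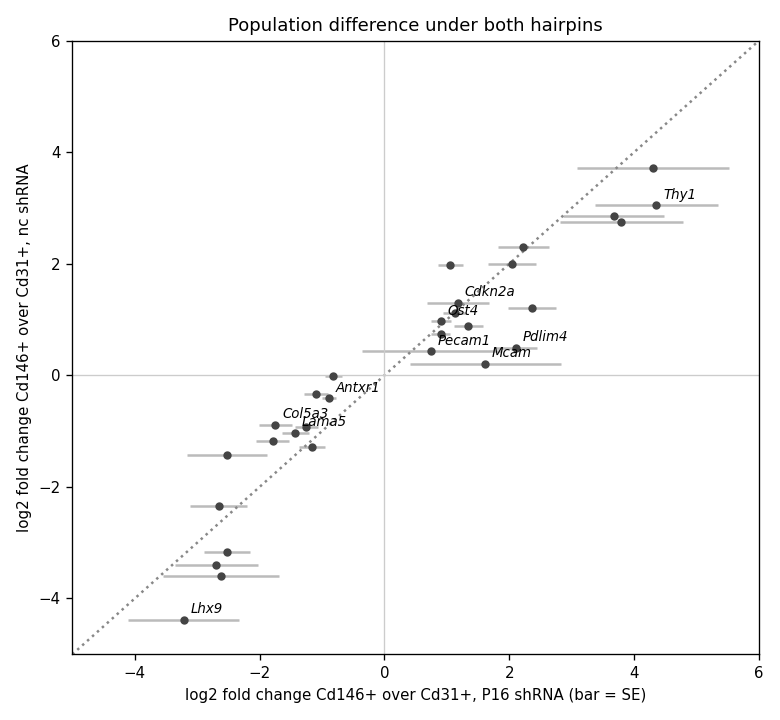
Log2 fold change of Cd146+ over Cd31+ cells under P16 shRNA (horizontal axis, bars are the SE) and under nc shRNA (vertical axis) for the genes leading by p or by size, without Sobp and Bex4, and for Cdkn2a, Pecam1 and Mcam. Prrg3 is shown although it lay below the detection floor in Cd31+ replicates 1 and 2. The dotted line marks an equal difference under both hairpins, with Thy1 at 4.36 and 3.05 and Lhx9 at −3.21 and −4.39.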

How the data were processed

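RNA sequencing counts of cultured mouse liver endothelial cells were used. The counts are whole numbers of reads per gene for 24 libraries, as deposited by the authors without normalization. The FPKM values that the authors deposited beside them were used only to compare levels between genes. The submitters' notes name fastp and the build mm9, the aligner and counter were not given in the sources used here, and the table names no build, so coordinates are printed as deposited. Their build was not established. They are not on the build of the promoter windows: Ifit3 starts at chr19:34560931 as deposited, and its GRCm38.p6 promoter window at chr19:34583363. Whether counting used strand was not clear. A further 20 columns hold the authors' own comparisons of constructs (group means, log2 fold changes, p-values) and were not used.

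Groups came from the sample labels. The 6 P16 shRNA libraries were compared with edgeR 4.0.16 in R 4.3.3 (filterByExpr, TMM, robust quasi-likelihood fit, two-sided test, Benjamini-Hochberg over all genes tested). SE is the log2 fold change divided by the square root of F. CPM are TMM-scaled unless called unscaled, with 0.5 added for list means on the log2 scale. The difference between the contrasts under P16 shRNA and nc shRNA was fitted over 12 libraries, without a term for the replicate number. No count column was identical to another. p-values measure the spread between these libraries, which may be technical.

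Named genes were Cdkn2a, the bead antigens and the most abundant members of 28 lists. Per direction, the 10 protein-coding genes with the smallest p were named, and the 5 with the largest separated difference at a mean of at least 1 CPM. The 5 leading genes per direction of the difference between the contrasts under P16 shRNA and nc shRNA were named too. Others were named as chosen after their values were seen. The comparison, the members and the lists were chosen with earlier results of these data known. Which rule genes are printed was narrowed. Other settings were no filter beyond 1 count, a minimum mean of 10 counts, DESeq2 1.42.0 (size factors, Wald test), fits over 12 or 24 libraries, the replicate block and each library left out. A term for Xist over 10 CPM, a fit to the 4 libraries without Xist and the difference without both Cd146+ number 3 libraries were added after seeing the data. On simulated data for the 6 libraries (14495 genes, observed dispersion), edgeR called 5% of genes changed 2-fold and 72.7% of genes changed 4-fold.

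Pairing was checked on deviations from group means. Hairpin libraries with the same number correlated at r = 0.515 to 0.734 within a population (5 pairs) and at −0.0469 to 0.0299 between populations (6 pairs), and the other 21 pairs with a shared number between populations at −0.0475 to 0.594 (median 0.301). Since not every pair exceeded 0.1, the numbers were not taken to pair libraries across the comparison. RefSeq promoters (GRCm38.p6) were searched on both strands.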

Additional observations from a re-analysis of the deposited data

How the results depend on the processing

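With 3 libraries a group and the spread of Cd146+ replicate 3, edgeR recovers few small differences, so a gene not called is not shown to be equal. With all genes of at least 1 count, 164 genes reached an adjusted p under 0.05 and 2336 an unadjusted one, and DESeq2's Wald test gave 241 adjusted calls. In a fit over all 24 libraries with the replicate block, in which Cd146+ replicate 6 carries no information because its number occurs once, 10 genes passed at the adjusted threshold. With each library left out, adjusted calls ranged from 0 to 393 and unadjusted ones from 677 (without Cd31+ replicate 2) to 3925 (without Cd146+ replicate 3). In the 4 libraries without Xist 2 genes passed the adjusted and 2408 the unadjusted threshold. The other scalings, filters and fits left 0 adjusted calls and 1437 to 1785 unadjusted ones, where the main fit had 1439.

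The block turned the sign of the log2 fold change for Pecam1 (−1.48), Mcam (−1.22), Cdh5 (−1.50), Emcn (−1.57), C1qa (−0.78) and Tpm2 (−0.12), and the term for Xist turned it for Pecam1 (−0.60), Mcam (−0.25), Cdh5 (−0.89), Emcn (−0.43) and C1qa (−0.84). Replicate 3 is the only Cd146+ library among the 4 without Xist, so the signs there restate that library. The sign turned there for Pecam1 (−4.49), Mcam (−3.98), Cdh5 (−4.19), Emcn (−5.01), Krt8 (−0.58), Krt18 (−2.82), C1qa (−3.73), Wnt2 (−0.54) and Tpm2 (−0.39). Without Cd146+ replicate 3 it turned for Ifit3 (−0.64) and B2m (−0.0146), where single libraries left out gave up to 3.52 and 0.999. The medians of the antigen presentation (−0.05), mesothelial (−0.38), lipid synthesis (−0.26), RT-PCR (−0.50) and inflammation (−0.0033) lists also turned negative there. The causes were not tested.

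The difference between the population contrasts under P16 shRNA and nc shRNA kept 0 adjusted calls in all fits run. Its unadjusted calls were 647 with all genes of at least 1 count, 522 with the replicate block within a population, 405 without both Cd146+ libraries of number 3, and between 108 (without Cd146+ nc shRNA replicate 1) and 840 (without Cd146+ nc shRNA replicate 5) with single libraries left out, against 168; without Cd31+ nc shRNA replicate 3 there were 270 and without Cd146+ P16 shRNA replicate 3 there were 690.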

Other observations

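A pair of processed pseudogenes, chosen after their values were seen, followed the libraries that express Xist and not the populations. Their reads can be shared with the parent gene, so their levels are uncertain. Gm13394 lay between 2.99 and 3.54 CPM, unscaled, in Cd31+ P16 shRNA cells and at 1.86, 383 and 506 CPM in Cd146+ P16 shRNA replicates 3, 5 and 6, and it was at most 5.1 CPM in every library without Xist. It stood at 280 and 267 CPM in the Cd31+ replicate 5 libraries with the empty vector and P16 constructs. Rpsa-ps10 lay at 109 to 118 CPM and at 113, 631 and 899 CPM, where its parent Rpsa lay at 1770 to 1960 CPM and at 2100, 1050 and 1470 CPM. In the Cd31+ replicate 5 libraries Rpsa-ps10 stood at 637 and 517 CPM. All pseudogenes together took 0.742% to 0.757% of the counts in Cd31+ P16 shRNA cells and 0.818%, 1.1% and 1.33% in Cd146+ P16 shRNA cells.

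The gene with the smallest p of the whole comparison was the processed pseudogene Gm5805, at 8.94, 9.14 and 9.94 CPM in Cd31+ and 32.5, 23.04 and 31.4 CPM in Cd146+ cells (edgeR adjusted p = 0.403). Within the Cd31+ population it ranged from 5.39 to 7.04 CPM, unscaled, with the empty vector and from 14.0 to 29.7 CPM with the P16 construct. Rpl19-ps11 showed the inverse, with 23.1 to 32.6 CPM and 9.82 to 17.3 CPM in those Cd31+ libraries, and, unscaled, 25.7 to 27.5 CPM in Cd31+ against 9.26 to 12.5 CPM in Cd146+ P16 shRNA cells.

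Ribosomal RNA also varied. Scaled over the 12 hairpin libraries, Rn18s-rs5 measured 3194, 5995 and 8029 CPM in Cd31+ and 10560, 11030 and 8203 CPM in Cd146+ P16 shRNA libraries, where in the nc shRNA libraries it measured 1996 to 2708 CPM and 11680 to 13740 CPM. The difference between the population contrasts under P16 shRNA and nc shRNA was −1.55 ± 0.41 (SE, log2, edgeR unadjusted p = 0.003, adjusted p = 1).

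For the lists not described above, the share of all genes at an unadjusted p under 0.05 was 5.39% higher and 4.33% lower. At that threshold, 3 of 18 large vessel endothelial genes were lower (median log2 fold change 0.41, but −0.81 with the term for Xist). In addition, 2 of 12 contractile genes were higher (median 0.87, but −0.14 with that term). Of 7 cholangiocyte genes 2 were higher (median 2.04, but −0.46 with that term). Of 19 stellate cell and fibroblast genes 2 were higher and 1 was lower (median 0.32, and 0.19 with that term). Of 33 junction and adhesion genes 2 were higher and 2 lower (median 0.24, but −0.34 with that term). Of 18 complement genes 2 were higher and 1 was lower (median 0.91, but −0.15 with that term). Of 6 mesothelial genes 1 was higher (median 0.60), and 1 of 2 hepatocyte genes tested was lower (median −0.93). None of 11 scavenger receptors (median 1.13), 3 lymphatic endothelial genes (median 0.40) or 26 lipid synthesis genes (median 0.13) reached that threshold in edgeR. With the term for Xist these medians were −0.26, 0.20 and 0.10. A list of RT-PCR targets was also counted, and its choice is not independent of these samples. Of its 15 tested genes 1 was higher and 2 were lower (median 0.31).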
